A study of Mus musculus with 6 samples.

Results

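The genes described here are 9 members of the S100 family and lipocalin 2, several of which have roles in inflammation or in calcium signaling of the heart. They were taken from the deposited table by gene name, ignoring case because the table writes names in capitals, and all 10 were found among its 43432 genes. Atrial RNA of 3 obese and 3 lean WT C57/Bl6J mice was sequenced. Obesity was induced with a high-fat diet (HFD) given from 6 weeks of age over 10 weeks, while the lean mice ate a control chow. Right and left atrial tissue was taken, and the labels do not say whether a sample came from 1 animal or whether the atria were kept apart, so "mouse" below means 1 sample. The titles of the samples and the column names gave the diets used here, while the treatment field of the labels gave the opposite diet for all 6 samples.

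S100 proteins are small proteins of the EF-hand type, most of which bind calcium and act as dimers. Inside cells they bind and regulate other proteins, and several of them are released by stressed or immune cells and act on surface receptors such as TLR4 and RAGE. S100A8 and S100A9 form calprotectin, an abundant protein of neutrophils and monocytes, whereas S100A1 is a protein of cardiac myocytes that acts on calcium cycling. Lipocalin 2 is a secreted protein that binds iron-carrying siderophores, and it is produced by neutrophils, fat, epithelium and other tissues in inflammation.

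In these atria Lcn2 had the largest log2 difference of the 10 genes, with no overlap between the groups. Its means were 165.5 ± 114 normalized counts in the obese group and 28.3 ± 9.37 in the lean group (SD, n = 3 each). The groups were also apart for S100a9 and S100a10, again with the obese mice on top, although S100a9 rested on few reads. Of all genes tested, which did not include S100a9, 18.0% had groups that did not overlap, and 8.86% had them with higher obese values. S100a1, the most abundant member, and S100a6, S100a11, S100a13 and S100b had overlapping values in the 2 groups. In the test over all genes none of the 8 members with enough counts had an adjusted p under 0.05, so these differences are given with their sizes and intervals.

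The values are normalized counts, which are the authors' reads per gene divided by 1 size factor per sample, and 3 reads amounted to between 2.05 and 3.41 normalized counts. The 6 samples held between 15874251 and 28971508 reads on genes, the most in lean mouse 2. That sample also had the highest mitochondrial share (30.7% against 19.5% to 24.4%) and the highest count of Myl2, a ventricular myosin light chain (8176 against 2290 to 3470 normalized counts). The atrial markers Nppa, Myl7, Myl4 and Sln were high in every sample, with at least 19693 normalized counts each. For Nppa, Myl7 and Myl4, obese mice 1 and 2 stood apart with lower values. Sln was lower in all 3 obese mice (23714, 19693 and 19799) than in the lean mice (25151 to 27600). The sum of 6 atrial myocyte markers was 637233 and 739701 normalized counts in obese mice 1 and 2, 1071735 in obese mouse 3 and 978492 to 1025331 in the lean mice. Myl7, the atrial myosin light chain, had 31186 and 27168 in obese mice 1 and 2, 58765 in obese mouse 3 and 56346 to 60190 in the lean mice.

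Lcn2 lies on the minus strand of chromosome 2 of GRCm38 from 32384633 to 32388252. S100a8 and S100a9 lie on chromosome 3, from 90669071 to 90670034 on the plus strand and from 90692632 to 90695721 on the minus strand, and their start sites are 26650 bases apart. The 250 bases before the start sites of these 3 genes (RefSeq, GRCm38.p6) are printed because they had the largest log2 differences of the 10 genes, with matches to the letters TTNNGNAA, a pattern bound by C/EBP factors, in capitals. The Lcn2 stretch is chr2:32387740-32387989 on the minus strand, that of S100a8 is chr3:90668821-90669070 on the plus strand and that of S100a9 is chr3:90695722-90695971 on the minus strand. The Lcn2 stretch lies inside the gene span given above, because the RefSeq start site, at 32387739, lies within that span.
Lcn2: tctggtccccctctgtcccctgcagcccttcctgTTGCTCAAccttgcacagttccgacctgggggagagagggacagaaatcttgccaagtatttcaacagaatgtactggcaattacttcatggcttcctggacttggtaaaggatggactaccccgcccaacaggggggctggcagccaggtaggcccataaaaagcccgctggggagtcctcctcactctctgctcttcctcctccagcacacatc
S100a8: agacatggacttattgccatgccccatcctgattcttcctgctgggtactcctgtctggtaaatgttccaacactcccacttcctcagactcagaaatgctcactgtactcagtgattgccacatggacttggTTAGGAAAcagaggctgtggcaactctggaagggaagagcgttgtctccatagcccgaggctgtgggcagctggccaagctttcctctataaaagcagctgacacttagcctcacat
S100a9: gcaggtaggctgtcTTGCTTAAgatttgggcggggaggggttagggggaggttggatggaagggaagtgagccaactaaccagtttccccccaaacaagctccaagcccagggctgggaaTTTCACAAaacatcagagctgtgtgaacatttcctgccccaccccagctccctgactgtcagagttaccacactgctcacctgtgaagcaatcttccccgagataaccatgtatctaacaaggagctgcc
Positions are counted from the start site, the base before it being -1. The Lcn2 match spans -216 to -209, the S100a8 match -117 to -110, and S100a9 had 2 matches, at -236 to -229 and -130 to -123.

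Promoter windows of 300 bases, 250 before and 50 after the start, were found for 9 of the 10 genes. On either strand, TTNNGNAA occurred in 3 of these 9 windows, those of Lcn2, S100a8 and S100a9, against 40.7% of all 32851 windows of the table. The share among the members was therefore no higher than that among all genes. The letters TGACTCA, the AP-1 site, occurred in 1 window, that of S100a11, against 5.20% of all windows. The NF-kB and glucocorticoid receptor patterns searched, present in 1.63% and 0.00913% of all windows, were not found in these 9 windows. A match of letters describes the sequence and does not show that a factor was bound.

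The first comparison was that of lipocalin 2 between obese and lean atria. Lcn2 had 288, 146 and 62.5 normalized counts in obese mice 1, 2 and 3 and 29.1, 18.5 and 37.2 in lean mice 1, 2 and 3. The lowest obese mouse was thus 1.68 times the highest lean mouse, and obese mouse 1 was 4.62 times obese mouse 3. The fitted log2 fold change of 2.30 (standard error 0.49) is a fold of 4.94 with a 95% interval from 2.33 to 10.5. Its unadjusted p in limma was 0.000733 and its adjusted p was 0.0657, while 0.746% of the 15275 genes tested had an adjusted p under 0.05. By a two-sided exact permutation test p was 0.1, below which a design of 3 against 3 cannot go.

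The call on Lcn2 depended on the test. DESeq2 on the recovered reads gave an adjusted p of 5.98e-06, and edgeR with TMM normalization one of 0.0625, at log2 fold changes of 2.57 and 2.58. With obese mouse 3 left out, the obese mouse with the lowest value, the log2 fold change was 2.87 and the limma adjusted p 0.00440. Without obese mouse 1 the log2 fold change was 1.78 (limma adjusted p = 0.143), and without obese mouse 2 it was 2.27 (limma adjusted p = 0.204). These were the mice with the highest Lcn2 and also those with the low sum of atrial myocyte markers, whose part in the difference was not tested.

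**Figure D1:**
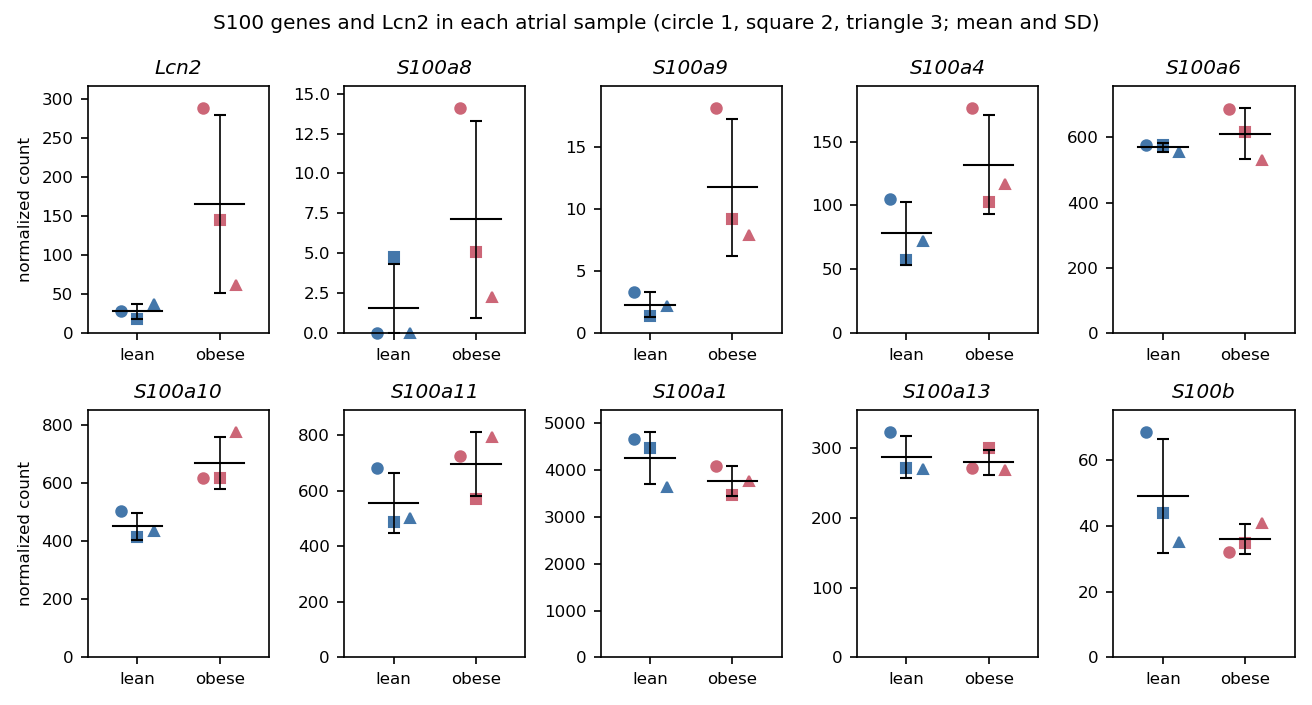
Normalized counts of the 10 genes (vertical axes, each from 0) in the 3 lean and 3 obese samples. Circles are mouse 1, squares mouse 2 and triangles mouse 3 of each group, and the labels do not say that these numbers pair animals. Lines and bars are the mean and SD (lower bars stop at 0). The groups are apart for Lcn2, S100a9 and S100a10 only. They were apart for 18.0% of all genes tested, which did not include S100a8 and S100a9.

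The calprotectin subunits were next to absent in lean atria and low in obese atria. S100a8 was covered by 14, 5 and 2 reads in obese mice 1, 2 and 3 and by 0, 7 and 0 reads in the lean mice, or 14.1, 5.10 and 2.27 against 0, 4.79 and 0 normalized counts. The groups overlapped, because lean mouse 2 had more than obese mouse 3. S100a9 was covered by 18, 9 and 7 reads in obese and 3, 2 and 2 reads in lean mice, or 18.1, 9.18 and 7.95 against 3.36, 1.37 and 2.19 normalized counts. Here the groups did not overlap, and each lean mouse had at most the 3 reads taken as the smallest signal.

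Both genes had a mean under the 10 normalized counts required for the test, so neither was tested among all genes. The summed reads per unit of size factor were 5.56 times as high in obese as in lean samples for S100a9 (95% exact interval 2.43 to 14.9) and 3.43 times for S100a8 (1.41 to 9.56). These intervals cover counting error only and compare these libraries, not the diets. The difference of the mean log2 values was 1.91 for S100a9 (exact permutation p = 0.1, two-sided) and 1.90 for S100a8 (exact permutation p = 0.2). When all genes with any read were tested, limma gave adjusted p-values of 0.352 and 0.527 and edgeR 0.388 and 0.688 for S100a9 and S100a8.

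With 0 to 7 reads in the lean mice, the depth did not allow a comparison of the ratio of the 2 subunits, or of either to Lcn2, between the groups. S100a8 had fewer reads than S100a9 in 5 of the 6 samples, the exception being lean mouse 2 with 7 and 2 reads. Obese mouse 1 had the highest and obese mouse 3 the lowest value of the obese mice for all 3 genes.

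The remaining S100 genes include signaling proteins of fibroblasts and leukocytes and partners of annexins. S100a4, also called fibroblast-specific protein, had 176, 103 and 117 normalized counts in the obese and 105, 57.5 and 72.1 in the lean mice. Obese mouse 2 lay just under lean mouse 1, so the groups overlapped. Its log2 fold change was 0.75 (standard error 0.28, unadjusted p = 0.0234, limma adjusted p = 0.313), with a fold of 1.68 and a 95% interval from 1.09 to 2.60. S100a4 shares 302 exon bases with a protein-coding gene model on the same strand, Gm42674, in GENCODE M21, so its count may depend on the annotation.

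S100a10, also called p11, forms a complex with annexin A2 at the plasma membrane. It had 618, 619 and 776 normalized counts in the obese and 504, 415 and 436 in the lean mice, and the lowest obese mouse was 1.23 times the highest lean mouse. The fitted log2 fold change of 0.57 (standard error 0.14, unadjusted p = 0.00239, limma adjusted p = 0.107) is a fold of 1.48 with a 95% interval from 1.19 to 1.84. With DESeq2 on the recovered reads the adjusted p was 0.0245, and with edgeR and TMM it was 0.110. Over the 6 limma fits without 1 mouse, its log2 fold change ranged from 0.46 to 0.65 and its adjusted p from 0.140 to 0.393.

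S100a11, which binds annexin A1 and lies beside S100a10 on chromosome 3 (from 93520488 to 93526287), had 724, 569 and 793 normalized counts in the obese and 681, 488 and 501 in the lean mice. Its log2 fold change was 0.32 with a 95% interval from -0.06 to 0.70 (limma adjusted p = 0.496), and the groups overlapped. S100a6, or calcyclin, had 686, 616 and 532 normalized counts in the obese and 578, 578 and 554 in the lean mice. The highest and the lowest of the 6 values both belonged to obese mice. The log2 fold change of S100a6 was 0.09 with a 95% interval from -0.20 to 0.38 (limma adjusted p = 0.833).

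S100a1, the member of cardiac myocytes, had 4086, 3452 and 3756 normalized counts in the obese and 4652, 4468 and 3630.0 in the lean mice. Lean mouse 3 lay within the obese range, and the log2 fold change was -0.17 with a 95% interval from -0.45 to 0.11 (limma adjusted p = 0.647). S100a13, which takes part in the release of fibroblast growth factor 1, starts 105 bases from S100a1 on the opposite strand and had 271, 299.8 and 268 normalized counts in the obese and 322, 271 and 270.0 in the lean mice. Its log2 fold change of -0.04 had a 95% interval from -0.36 to 0.28 (limma adjusted p = 0.952). Changes within these intervals could not be told from 0 with 3 mice a group.

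S100b, a gene of Schwann cells and adipocytes, had 32.1, 34.7 and 40.9 normalized counts in the obese and 68.3, 43.8 and 35.0 in the lean mice. The difference rested mainly on lean mouse 1: the log2 fold change was -0.39 with all mice (95% interval -1.13 to 0.34, limma adjusted p = 0.695) and -0.13 without it. S100b lies within the span of Dip2a on the opposite strand, with 0 shared exon bases.

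**Figure D2:**
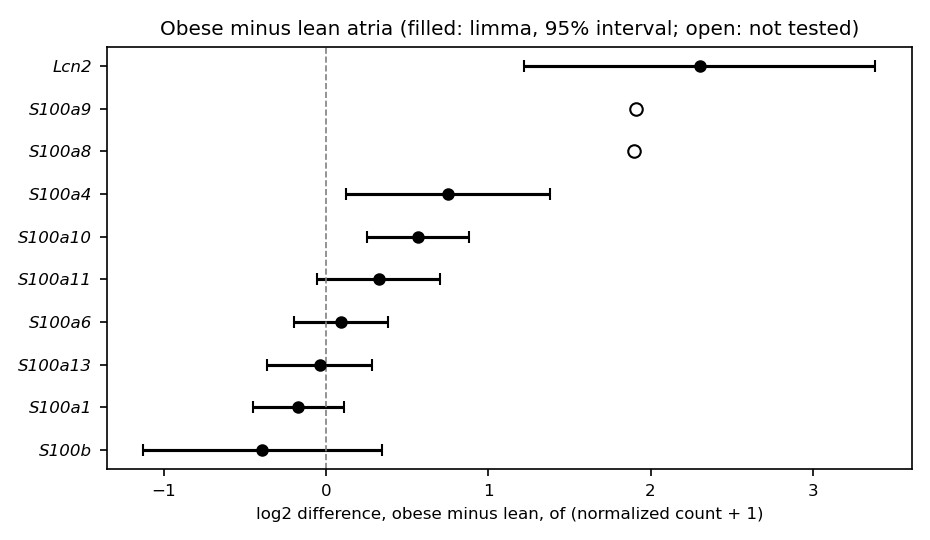
Difference of log2(normalized count + 1), obese minus lean, for each gene (horizontal axis, n = 3 mice each); filled points are limma estimates with 95% intervals and open points are S100a8 and S100a9, which were not tested. The interval of Lcn2 runs from 1.22 to 3.39 and those of S100a10 and S100a4 also lie above 0, before adjustment over 15275 genes.

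Among the 8 members tested, 3 had an unadjusted p under 0.05 in limma (Lcn2, S100a10 and S100a4, all higher in obese atria), while 12.2% of all genes tested had one and 6.66% had one with a higher obese value. The groups did not overlap for 2 of the 8, Lcn2 and S100a10, against 18.0% of all genes tested. The adjusted p was under 0.05 for 0 of 8 with limma, for 0 of 8 with edgeR and TMM, where 0.57% of the genes passed, and for 2 of 8 with DESeq2, where 3.08% passed. In edgeR without a filter, where 2.24% of 24679 genes passed, it was under 0.05 for 2 of the 10 members, Lcn2 and S100a10. The median log2 fold change was 0.21 for the 8 members and 0.00492 for all genes tested. In bulk tissue fewer cells of a type and less RNA per cell cannot be told apart.

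Per kilobase of the longest transcript, S100a1 had the highest level of the 10 genes in both groups, with 6278 ± 805 normalized counts per kilobase in lean and 5561 ± 468 in obese atria (SD, n = 3 each). In lean atria it was followed by S100a11 (1089 ± 211), S100a6 (728 ± 17.3), S100a10 (659 ± 67.9) and S100a13 (403 ± 42.0). S100a6 was above S100a10 in each of the 3 lean mice, by little in lean mouse 1 (738 against 736 per kilobase) and by more in lean mice 2 (738 against 605) and 3 (708 against 637). In obese atria S100a10, at 979 ± 133, came before S100a6, at 781 ± 98.8, and no obese mouse had a level of S100a10 below the highest level of S100a6. S100a4, S100b, Lcn2, S100a9 and S100a8 were the lowest 5 in lean atria. Lcn2 had 20.6 ± 6.82 in lean atria, where it was below S100b (33.0 ± 11.6) in lean mice 1 and 2 and above it in lean mouse 3, and 120.5 ± 83.1 in obese atria, where all its values were above those of S100b (24.2 ± 3.03).

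**Figure D3:**
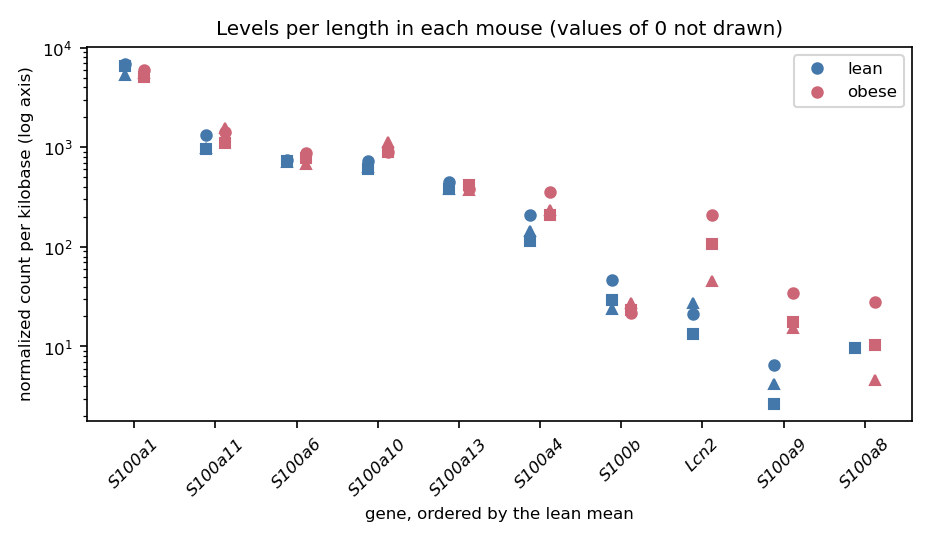
Normalized count per kilobase of transcript (log axis) for each gene in each mouse, lean in blue and obese in red, with circles, squares and triangles for mice 1, 2 and 3 of each group. S100a1 is highest throughout, with at least 5099 per kilobase, and the 2 lean values of 0 for S100a8 are not drawn.

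The summed counts of the 9 S100 genes overlapped between the groups, with 5708 to 6625 in obese and 5500 to 6914 in lean mice. S100a1 made up 61.7%, 60.5% and 59.7% of this sum in obese mice 1, 2 and 3, against 67.3%, 70.6% and 66.0% in lean mice 1, 2 and 3, so the share was lower in each obese mouse. This share was looked at after the values of the genes were seen. Of 7 other S100 genes, S100a16 had 650.0, 505 and 701 normalized counts in the obese and 682, 591 and 555 in the lean mice (log2 fold change 0.01, limma adjusted p = 0.985). S100a7a had between 1.09 and 22.7 normalized counts (limma adjusted p = 0.831), S100a3, S100a14 and S100g had at most 4 reads in any sample, and S100a5 and S100z had 0 reads in all 6.

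The next question was whether receptors and partners of these proteins differed in the same atria. Of 8 genes for receptors and surface partners, 6 were tested and 0 had an adjusted p under 0.05, and the median log2 fold change was 0.13. Tlr4, a receptor of S100A8 and S100A9, had 216, 248 and 249 normalized counts in the obese and 123, 176 and 156 in the lean mice (log2 fold change 0.65, limma adjusted p = 0.142). Cd36, a fatty acid transporter that can take part in uptake of fatty acids bound by calprotectin, had 27740.0, 26431 and 19269 against 13928, 15505 and 14768 normalized counts (log2 fold change 0.72, limma adjusted p = 0.0686). For both genes the lowest obese value exceeded the highest lean value.

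Slc22a17, which encodes a receptor of lipocalin 2, went the other way. It had 382, 319 and 295 normalized counts in the obese and 469, 387 and 459 in the lean mice (log2 fold change -0.40, limma adjusted p = 0.308), and all obese values were below the lean ones. Bsg, which encodes basigin, had overlapping values (log2 fold change -0.10, limma adjusted p = 0.813). Lrp2 and Cd33 of the same list overlapped too, with log2 fold changes of 0.36 and -0.21 (limma adjusted p = 0.776 and 0.883). Obese values without overlap were higher for 8.86% and lower for 9.17% of all genes tested. Ager, the gene of the receptor RAGE, had 7.03 to 15.3 normalized counts in obese and 7.65 to 10.3 in lean mice, and Mc4r had 0 reads in all 6 samples.

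Of 11 genes for intracellular and extracellular binding partners, 11 were tested, 0 had an adjusted p under 0.05 and the median log2 fold change was 0.13. Anxa2, the partner of S100a10, had 2015, 1749 and 2507 normalized counts in the obese and 1862, 1508 and 1335 in the lean mice, and obese mouse 2 lay below lean mouse 1 (log2 fold change 0.41, limma adjusted p = 0.336). Anxa1, the partner of S100a11, had 799.6, 735 and 718 against 696, 503 and 603 normalized counts, with no overlap (log2 fold change 0.33, limma adjusted p = 0.378). Atp2a2 and Ryr2, the calcium pump and release channel on which S100A1 acts, had log2 fold changes of 0.13 and 0.08 and overlapping values. Mmp9, whose protein forms a complex with lipocalin 2, had 346 normalized counts in obese mouse 1, between 77.5 and 97.7 in the other obese mice and between 117 and 160.1 in lean mice.

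A list of 16 acute phase genes and of genes linked to NF-kB, C/EBP or STAT3 signaling was examined because Lcn2, S100a8 and S100a9 are known targets of these pathways. Of its 12 tested genes, 0 had an adjusted p under 0.05, 8 had an unadjusted p under 0.05 and a higher value in obese atria, against 6.66% of all genes tested, and the median log2 fold change was 0.44. The groups did not overlap with higher obese values for 8 of the 12, against 8.86% of all genes tested, and with lower obese values for 1, Cxcl1, against 9.17%. Like the members and the other lists, this list was chosen with earlier results of these data known. These shares therefore describe the list and do not test it. Stat3 had 4036, 4492 and 4919 normalized counts in the obese and 3374, 3085 and 3890.1 in the lean mice (log2 fold change 0.38, limma adjusted p = 0.235). Nfkbia, an inhibitor and target of NF-kB, had 1019.6, 867 and 961 against 759, 782 and 741 (log2 fold change 0.32, limma adjusted p = 0.296). Hp had 1556, 491 and 831 against 969, 293 and 187, with overlap (log2 fold change 1.19, limma adjusted p = 0.415). Zc3h12a and Il1r1 overlapped too (log2 fold changes 0.10 and 0.39). Saa3, Orm1, Il6 and Chil3 had means under 10 and were not tested. Of these, Saa3 was higher in every obese mouse, on at most 14 reads, and the others overlapped, with Orm1 lower on average in obese mice.

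The genes of this list with the smallest p were named after their values were seen. Cebpd had 645, 441 and 649 normalized counts in the obese and 341.5, 308 and 244 in the lean mice, and Cebpb had 965, 875 and 804 against 481, 514 and 245. Their log2 fold changes were 0.95 and 1.16 and their adjusted p-values 0.0550 and 0.0657 from limma. Both encode C/EBP transcription factors, and each was higher in 3 of 3 obese mice than in any lean mouse. The log2 fold change of Socs3, a target of STAT3, was 0.94 (limma adjusted p = 0.110). Il1b had 22, 27 and 86 reads in the obese and 5, 0 and 16 in the lean mice, and its highest value was in obese mouse 3, the obese mouse with the lowest Lcn2, S100a8 and S100a9.

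**Figure D4:**
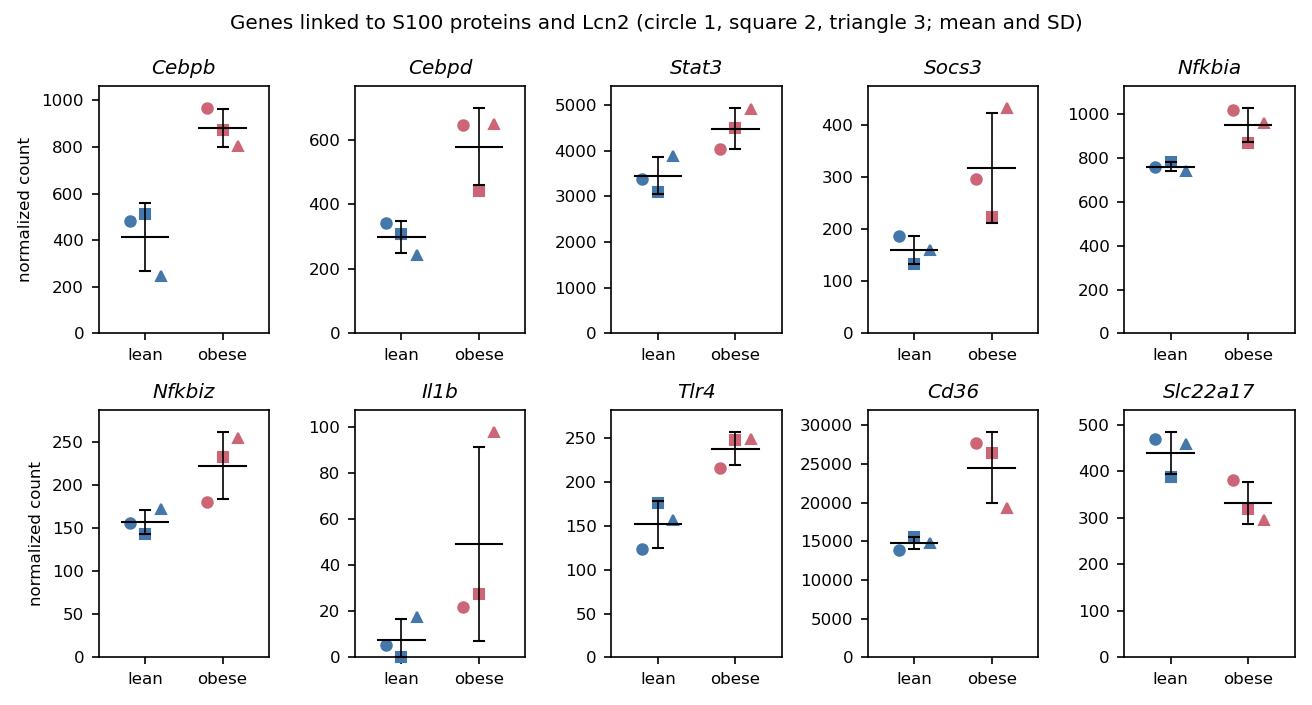
Normalized counts of 10 genes linked to S100 proteins and lipocalin 2 (vertical axes, each from 0) in lean and obese samples, with the mean and SD of 3 mice and the same symbols per mouse number. All 3 obese values lie above all lean values except for Slc22a17, where they lie below. The 10 are a selection from longer lists. Listed genes with overlapping values, such as Bsg and Anxa2, and Cxcl1, which was lower in obese mice, are not drawn. Of all genes tested, 8.86% had higher and 9.17% had lower obese values without overlap.

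Markers of cells that carry these proteins were read beside the members. Of 13 neutrophil markers, 11 had a mean under 10 normalized counts, Elane and Ngp had 0 reads in all samples and Ly6g had 1 read in 1 sample. The 11 genes together had 21, 6 and 4 reads in obese mice 1, 2 and 3 and 3, 2 and 10 in the lean mice, at most 5 for any gene and sample. Among the obese mice these reads were most numerous in obese mouse 1, which also had the highest Lcn2, S100a8 and S100a9, but they were more numerous in lean mouse 3 than in obese mice 2 and 3. Summed over all 13 markers, the level was 55.1 to 81.4 normalized counts in obese and 48.1 to 55.7 in lean mice, and of the 2 markers tested the log2 fold change was 0.71 for Csf3r (limma adjusted p = 0.389) and -0.40 for Padi4. Their part in the calprotectin counts was not tested.

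Of 10 macrophage and monocyte markers, 2 had an adjusted p under 0.05, both higher in obese atria as were 0.484% of all genes tested, and the median log2 fold change was 0.36. They were Itgam (log2 fold change 1.18, limma adjusted p = 0.0106) and Cd163 (0.95, adjusted p = 0.0310), which passed in 3 and in 1 of the 6 fits that left out a mouse. Csf1r and Lyz2, the most abundant of the list, had log2 fold changes of -0.01 and 0.35 and did not pass. The summed level of the 10 genes was 9919 to 11012 in obese and 7080 to 8791 normalized counts in lean mice. Much of this sum was Lyz2, with 5705, 4294 and 4887 in the obese and 4418, 4075 and 3188 in the lean mice. The groups overlapped for Lyz2 and for Csf1r. Whether macrophage RNA contributed to the S100 or Lcn2 counts was not tested.

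Adipocyte markers overlapped between the groups for 5 of 6 genes, the exception being Fabp4 (log2 fold change 0.81, limma adjusted p = 0.108). Their summed level was 10687, 6755 and 5879 normalized counts in obese mice 1, 2 and 3 and 5563, 4823 and 3232 in lean mice 1, 2 and 3, most of it Fabp4, a fatty acid binding protein. Without Fabp4 the sum was 1866, 482 and 804 in the obese and 1335, 654 and 283 in the lean mice, so the groups overlapped. Obese mouse 1 was highest in both sums and in Lcn2, but obese mouse 2, second in Lcn2, was the lowest obese mouse without Fabp4, and lean mouse 3 had the highest Lcn2 and the lowest sums of the lean mice. The part of adipose tissue in the Lcn2 difference was not tested. Of 7 Schwann cell markers, 0 passed, and the median log2 fold change was -0.32, beside -0.39 for S100b. Of the fibroblast, mesothelial, atrial myocyte, ventricular myocyte and red blood cell markers, 0 passed in any list, with median log2 fold changes of -0.14, -0.02, -0.42, -0.40 and -0.07.

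The genes whose log2 values followed a member most closely over the 6 samples were listed as a description, since with 6 samples very high correlations occur among so many genes. For Lcn2 they were Tmem140 (Pearson r 0.993), Atmin (0.992), Atg13 (0.990), Srpx (0.988) and Gm20518 (0.988). For S100a9 they were Klhl2 (0.997), Gm38300 (0.997), 9330159F19Rik (0.996), Arhgef28 (0.996) and Hpcal1 (0.993). For S100a8 they were D830032E09Rik (0.988), Pnma1 (0.986), Rpf1 (0.983), Gm16439 (0.979) and Ppp1r3f (0.977). None of these genes had an adjusted p under 0.05 in limma. Within the members, the highest Pearson r over the same 6 samples was 0.95, for Lcn2 and S100a9. It was 0.93 for S100a4 and S100a9, 0.84 for S100a4 and S100a11, and 0.84 for Lcn2 and S100a4. S100a10 and S100a11 had 0.83, and S100a8 and S100a9 had 0.63. Obese and lean samples were pooled, so differences between the groups enter these values, and S100a8 and S100a9 rested on few reads.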

How the data were processed

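Atrial RNA of 3 obese and 3 lean mice was sequenced by the authors as single-end reads from directional libraries. Alignment by the authors was to GRCm38 (Ensembl annotation) with STAR, after which unique alignments went to Salmon for gene counts and to DESeq2 for normalization, and the versions of these tools are not given in the sources used here. Each deposited signal value, called a normalized count here, is a read count over the size factor of its sample. The authors also deposited their own comparison (the mean, log2 fold change and its error, p-value, adjusted p-value and 2 scores, a Wald statistic and a ranking metric), which was not used. Whether counting used strand is not stated.

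The diets followed the sample titles. Genes were named from GENCODE M21 (42548 of 43432 identifiers), and 1 row without an identifier, at 0 in all samples, was left out. Read counts were rebuilt from the value of 1 read in each sample, and 100% of values came out whole within 0.01 reads. Obese and lean samples were set against each other in limma 3.58.1 under R 4.3.3 (variance trend, no covariates) on log2(normalized count + 1), a scale that understates changes of low genes, for the 15275 of 24679 genes with any read whose mean was at least 10, with Benjamini-Hochberg adjustment at 0.05. Exact permutation tests used scipy 1.17.1. The limma step was tested on simulated data. P-values measure the spread between these samples, and the labels give no batch. Alternatives were edgeR 4.0.16 and DESeq2 1.42.0 on recovered reads, and other normalizations, filters, pseudocounts, variance models and sets of mice. An edgeR fit without a filter was added after seeing the data. The labels do not say whether the replicate numbers of the titles pair mice, and the main fit used no pairing.

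The members and gene lists were chosen with earlier results of these data known. All members are named, with list genes past the threshold, the most abundant of each list, receptors and partners whose groups did not overlap, and the 5 genes most like Lcn2, S100a8 and S100a9. Promoter sequences came from RefSeq (GRCm38.p6). Protein sequences were not used here.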

Additional observations from a re-analysis of the deposited data

How the results depend on the processing

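The count of genes with an adjusted p under 0.05 was 114 in limma and 0 without a variance trend (1717 at an unadjusted p under 0.05), 470 with DESeq2 and 554 with edgeR without a filter. Leaving out 1 mouse gave from 14 (without lean mouse 2) to 342 (without obese mouse 3), with 52 without obese mouse 1, 24 without obese mouse 2, 50 without lean mouse 1 and 19 without lean mouse 3. Of the members, 0 passed in limma, 1 (Lcn2) with the replicate block, 2 (Lcn2 and S100a10) with DESeq2 and 2 with edgeR without a filter, and from 0 to 1 when 1 mouse was left out. Of the other listed genes, 2 passed in limma, 0 without a variance trend, 1 with mitochondrial genes left out, 4 with no filter on low values, 5 with the replicate block, 8 with DESeq2, 8 with edgeR without a filter, and from 0 to 8 when 1 mouse was left out. The causes of these differences were not tested.

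With the replicate number as a block, 157 genes passed and the limma adjusted p of Lcn2 was 0.0430. Same-numbered samples correlated at 0.116, -0.0270 and -0.00386 in their deviations from the group mean, and differently numbered ones at -0.147 to 0.160. Such deviations sum to 0 over the 3 samples of a group, so they cannot decide whether the numbers pair mice. The labels do not say that they do. In 17 alternatives Lcn2 kept its direction, with log2 fold changes from 1.78 to 2.87 and adjusted p-values up to 0.237, and passed in 4. S100a13 ranged from -0.0888 without obese mouse 2 to 0.0463 without lean mouse 1, a change of sign (limma adjusted p = 0.961), and the other 7 tested members kept theirs in all 17. Depth limits S100a8 and S100a9, which had at most 18 reads in a sample.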
